A study of Triticum turgidum subsp. durum with 36 samples.

Results

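Among 80168 loci counted in flag leaves of tetraploid wheat, 150 were picked because wild-type leaves held more of their transcript at the last stage sampled than leaves carrying mutations in both GPC1 and GPC2. The loci were chosen by their levels in CPM, the count divided by the library total and multiplied by 1000000. A locus qualified when its lowest CPM in the WT libraries of 22 days after anthesis (DAA) lay above its highest CPM in the gpc-A1/gpc-B2 libraries of 22 DAA and above every WT library of heading date (HD) and 12 DAA. The mean WT level at 22 DAA also had to reach 2 CPM. Of 460 loci that passed, 7 matched genes of metal transport or metal chelator synthesis analysed separately and were left out, 5 of which stood high enough to have entered. The 150 were then those with the highest log2 ratio of WT over gpc-A1/gpc-B2 mean CPM at 22 DAA, with 0.5 CPM added to both means. The values of those 4 groups therefore chose the loci and are given as a description without a test.

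The study sequenced RNA from single entire flag leaves of greenhouse-grown Kronos, a tetraploid durum wheat that lacks a functional GPC-B1 gene, under long days. Leaves of 3 genotypes were taken at heading and at 12 and 22 DAA, each as 4 biological replicates, which gave 36 libraries in 9 groups. The gpc-A1/gpc-B2 plants carried premature stop codons in GPC-A1 and GPC-B2, so no functional GPC1 remained, while the GPC-A2 copy of GPC2 was still present. The gpc-A1 plants carried the stop codon in GPC-A1 alone, and WT plants were sister lines without either mutation from the same backcrosses, so all 3 genotypes shared the missing GPC-B1. The authors checked each sample's genotype in the aligned reads. A point mutation does not show in a count per locus, so that check was not repeated here. The library titled gpc-A1 HD replicate 1 has wild type in its genotype field, and its title was followed.

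The GPC genes encode NAC transcription factors of the NAM group that speed up the senescence of wheat leaves after flowering. During this monocarpic senescence, leaf cells take apart chloroplasts, break down proteins and chlorophyll, and send nitrogen and minerals to the filling grain. Plants that lack GPC function stay green longer and move less nitrogen, iron and zinc to the grain.

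Library totals ranged from 13754124 to 48981831 counts, so 1 CPM stood for 13.8 to 49.0 counts. The 10 loci of the Rubisco small subunit, a leaf marker, had a summed level between 12463 and 15851 CPM in gpc-A1/gpc-B2, 13289 and 16283 CPM in gpc-A1, and 7194 and 18143 CPM in WT at HD. At 22 DAA it lay between 4431 and 7128 CPM in gpc-A1/gpc-B2, 2051 and 8277 CPM in gpc-A1, and 2217 and 5580 CPM in WT, the lowest in gpc-A1 and in WT being replicate 2. Because the leaves were sampled whole, fewer cells of a type and less RNA per cell cannot be told apart. Replicate 2 of WT at 22 DAA and replicate 2 of gpc-A1 at 22 DAA stood apart for the 150 loci, so the main counts and medians are also given without replicate 2.

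Most of the 150 loci have no gene description in the sources used here, and they are named by chromosome arm, contig and position in the assembly of wheat chromosome-arm contigs to which the reads were mapped. Their median length was 2086 bp, with a range of 219 to 13143 bp, against 1787 bp for the 75375 loci tested. The A genome held 84 of them, 56% against 47.6% of tested loci. Arms 2AL and 2BL held 14 each, chromosome 3B held 13 and arm 6AS held 10, the last being 6.67% of the set against 2.88% of tested loci. They were spread over separate contigs, since 1 contig of 3B held 2 of them and no other contig held more than 1. Most were expressed at moderate levels, and the mean WT level at 22 DAA ranged from 2.01 to 1551 CPM with a median of 13.2 CPM.

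The median CPM over the 150 loci described the set in each library. In gpc-A1/gpc-B2 leaves it was 1.77, 1.38, 1.45 and 1.73 CPM in replicates 1 to 4 at HD, 2.45, 4.45, 3.24 and 3.08 CPM at 12 DAA, and 5.36, 4.16, 3.47 and 3.75 CPM at 22 DAA. In gpc-A1 leaves it was 1.56, 1.38, 1.43 and 1.59 CPM at HD, 2.06, 2.59, 2.52 and 3.26 CPM at 12 DAA, and 9.11, 20.3, 3.59 and 5.73 CPM at 22 DAA. In WT leaves it was 1.69, 1.64, 1.504 and 2.76 CPM at HD, 3.24, 4.50, 3.61 and 4.83 CPM at 12 DAA, and 9.54, 21.5, 8.29 and 12.8 CPM at 22 DAA. The genotypes were close together at HD and partly overlapped at 12 DAA. At 22 DAA gpc-A1 replicate 3 lay within the gpc-A1/gpc-B2 range, while gpc-A1 replicate 2 was exceeded only by WT replicate 2.

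**Figure D1:**
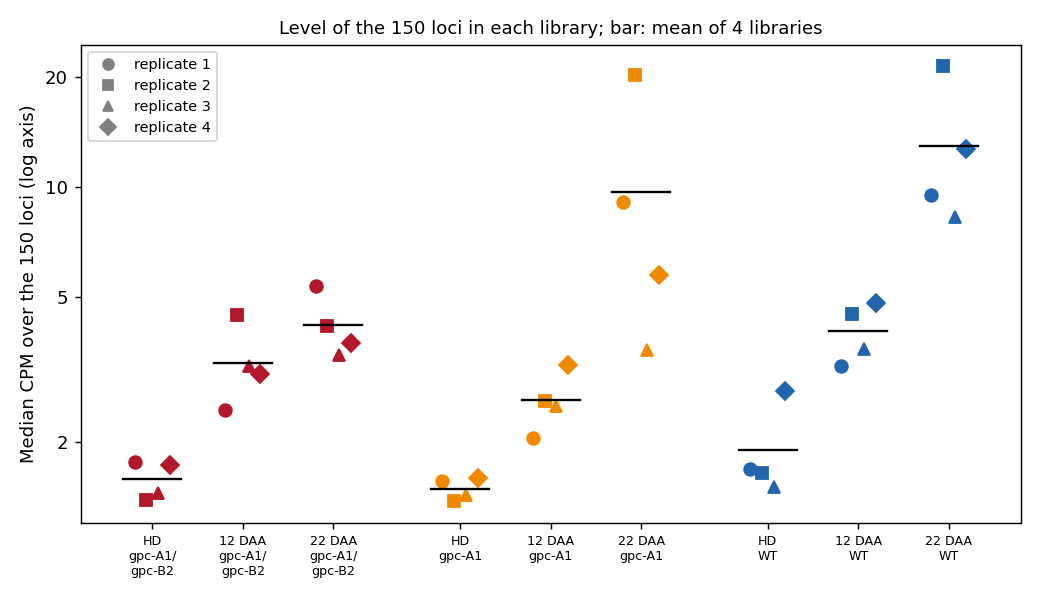
Median CPM over the 150 loci in each of the 36 libraries (log axis) at HD, 12 DAA and 22 DAA, with points for single libraries of gpc-A1/gpc-B2, gpc-A1 and WT and a bar at the mean of 4. At 22 DAA the gpc-A1 libraries spread from 3.59 to 20.3 CPM, while the gpc-A1/gpc-B2 libraries lie between 3.47 and 5.36 CPM.

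The set did not stay flat in gpc-A1/gpc-B2 leaves. Per locus, the mean level at 12 DAA was a median 1.54 times that at HD in gpc-A1/gpc-B2, 1.34 times in gpc-A1 and 1.65 times in WT, with 0.5 CPM added to each mean. The median ratio of 22 DAA over 12 DAA was 1.24 in gpc-A1/gpc-B2, 2.35 in gpc-A1 and 2.59 in WT. At least a 2-fold higher mean at 22 DAA than at HD was found for 59 of the 150 loci in gpc-A1/gpc-B2, 121 in gpc-A1 and 143 in WT, and without replicate 2 for 57 in gpc-A1/gpc-B2, 91 in gpc-A1 and 135 in WT. The share of all tested loci with such a 2-fold difference was not counted. Over all tested loci the median ratio of 22 DAA over HD was 1.10 in gpc-A1/gpc-B2, 1.09 in gpc-A1 and 1.12 in WT. Without replicate 2, the median ratio of 22 DAA over 12 DAA was 1.37 in gpc-A1/gpc-B2, 1.69 in gpc-A1 and 2.25 in WT. The smaller late increase in gpc-A1/gpc-B2 was thus a reduced increase and not an absent one at every locus, and what is shown for WT and gpc-A1/gpc-B2 at 22 DAA follows from how the loci were chosen.

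The gpc-A1 leaves of 22 DAA played no part in the choice. The gpc-A1 mean at 22 DAA lay above that of gpc-A1/gpc-B2 and below that of WT at 115 of the 150 loci (17% of tested loci). It lay at or above WT at 33 (48.4%) and at or below gpc-A1/gpc-B2 at 2 (56.7%). The median position was 48.2% of the way between the gpc-A1/gpc-B2 mean and the WT mean. Without replicate 2 it was 21.7% of the way, with 129 loci between, 9 at or above WT and 12 at or below gpc-A1/gpc-B2. Both ends of this scale were fixed by the choice, so the position is a description. Every gpc-A1 library lay above every gpc-A1/gpc-B2 library at 17 loci, where 0.939% of all tested loci did so. Every WT library lay above every gpc-A1 library at 22 loci, against 1.77%. Each count uses WT or gpc-A1/gpc-B2 libraries of 22 DAA that chose the loci, so these counts too are a description.

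The spread within gpc-A1 at 22 DAA came with 1 library more than the others. Replicate 2 was the highest of the 4 gpc-A1 libraries at 131 of the 150 loci (22.5% of tested loci). At 69 of them it was at least 2 times the next highest (4.9%). In WT at 22 DAA replicate 2 was highest at 115 loci (22.9%) and at least 2 times the next at 36 (2.66%). In gpc-A1/gpc-B2 at 22 DAA replicate 1 was highest at 101 loci (24.7%) and replicate 2 at 18 (20.7%). The WT and gpc-A1/gpc-B2 libraries took part in the choice, so their counts are a description. Summed over the set, gpc-A1/gpc-B2 replicates 1 to 4 held 3740, 3055, 2877 and 2973 CPM, gpc-A1 replicates held 5687, 10489, 2879 and 3233 CPM, and WT replicates held 6269, 11776, 5487 and 8144 CPM.

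Loci of the light-harvesting chlorophyll a/b proteins, which bind most leaf chlorophyll and decline as chloroplasts are taken apart, gave a second view of the same leaves. None of these 21 loci belonged to the 150. Their summed level at 22 DAA was 10218, 18044, 18511 and 11307 CPM in gpc-A1/gpc-B2 replicates 1 to 4, 9928, 6881, 18627 and 23846 CPM in gpc-A1, and 19493, 7486, 16319 and 5492 CPM in WT. In gpc-A1/gpc-B2 the library with the highest set sum also had the lowest light-harvesting sum, as did the library with the highest set sum in gpc-A1. In WT the highest set sum, of replicate 2, came with the second lowest light-harvesting sum. The part of leaf stage in the differences between single libraries was not tested.

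**Figure D2:**
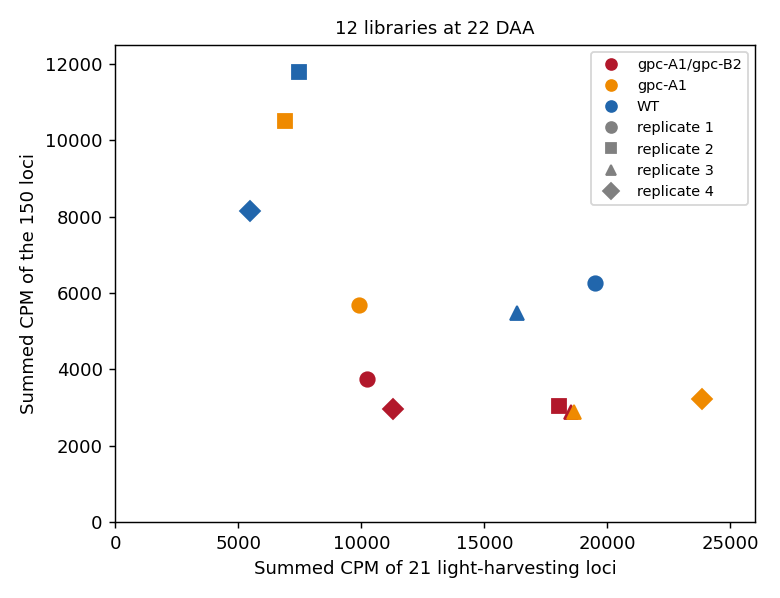
Summed CPM of the 21 light-harvesting loci (horizontal) against the summed CPM of the 150 loci (vertical) for the 12 libraries of 22 DAA, 4 each of gpc-A1/gpc-B2, gpc-A1 and WT. The gpc-A1 and WT replicates 2 have the highest sums of the 150 loci, 10489 and 11776 CPM, beside light-harvesting sums of 6881 and 7486 CPM.

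Within gpc-A1, the change between stages could be tested on libraries that the choice did not use. A locus was called when it passed all of 4 tests, namely edgeR's quasi-likelihood test and DESeq2 at an adjusted p of 0.01, a rank test at 0.05 and a location test on normalised counts at 0.01. From HD to 22 DAA, 2 of the 150 loci were called higher and 0 lower, against 0.366% of tested loci higher and 0.699% lower. By edgeR alone 32 loci were higher (1.58% of tested loci) and by DESeq2 alone 94 (7.12%), and 0 were lower by either tool, where 0.939% and 4.81% of tested loci were. At an unadjusted edgeR p under 0.05 the counts were 127 higher, where 17.3% of tested loci were, and 0 lower, where 13.9% were. The median log2 fold change was 2.13 over the 150 loci against 0.03 over all tested loci. The log2 fold change was positive at 147 of the 150, against 51.6% of all tested loci. Without replicate 2 the median was 1.37, and 101 loci were higher at an unadjusted p under 0.05 (12.2% of tested loci), 63 by DESeq2 (3.33%) and 11 by edgeR (0.281%). The edgeR count was 0 without replicate 1, where 0% of tested loci were higher, and 7 without replicate 4 (0.358%). It was 2 (0.0809%) without gpc-A1 HD replicate 1 alone, the library with the conflicting genotype field. The DESeq2 count was 54 without replicate 1 (2.57%).

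The 2 loci called at 22 DAA over HD were named after their values were seen. At 7AS_4068593:464-845, gpc-A1 leaves held 26.9, 27.4, 17.5 and 32.6 CPM at 22 DAA against 1.24, 2.22, 1.37 and 2.37 CPM at HD. All 4 late libraries stood far above the early ones, a log2 fold change of 3.69 ± 0.31 (SE, n = 4 per stage; edgeR adjusted p = 0.000689). At 2BL_7976511:10855-12252, gpc-A1 leaves held 7.15, 8.03, 8.63 and 6.52 CPM at 22 DAA against 0.412, 0.407, 0.514 and 1.62 CPM at HD, a log2 fold change of 3.21 ± 0.38 (edgeR adjusted p = 0.00225). These loci varied little among the 4 late gpc-A1 leaves, unlike most of the set. When 1 replicate number was left out, both were called without replicate 3, only 2BL_7976511:10855-12252 without replicate 4, and neither without replicate 1 or 2.

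No locus of the 75375 was called in gpc-A1 at 22 DAA over 12 DAA, higher or lower, so 0 of the 150 were, against 0% of all. By edgeR alone 0 of the 150 passed, and the lowest edgeR adjusted p among them was 0.0849. By DESeq2 alone 39 were higher and 0 lower, against 1.55% and 0.482% of tested loci, and at an unadjusted edgeR p under 0.05 109 were higher and 0 lower, against 11.4% and 6.38%. The median log2 fold change was 1.49, against 0.02 over all tested loci, and 0.87 without replicate 2. The DESeq2 count was 11 without replicate 1 (0.184% of tested loci), 17 without replicate 2 (0.41%), 71 without replicate 3 (2.99%) and 21 with the replicate number as a block (0.759%). At an unadjusted edgeR p under 0.05, 68 were higher without replicate 2 (5.58%). The lowest gpc-A1 library of 22 DAA lay above the highest of 12 DAA at 61 loci (5.54% of tested loci) and above the highest of HD at 106 (16.2%), with 59 above both (4.7%). Without replicate 3, the library with the least of the set, the count above 12 DAA was 94, against 11.6% of tested loci, and without replicate 4 it was 88, against 16.1%.

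**Figure D3:**
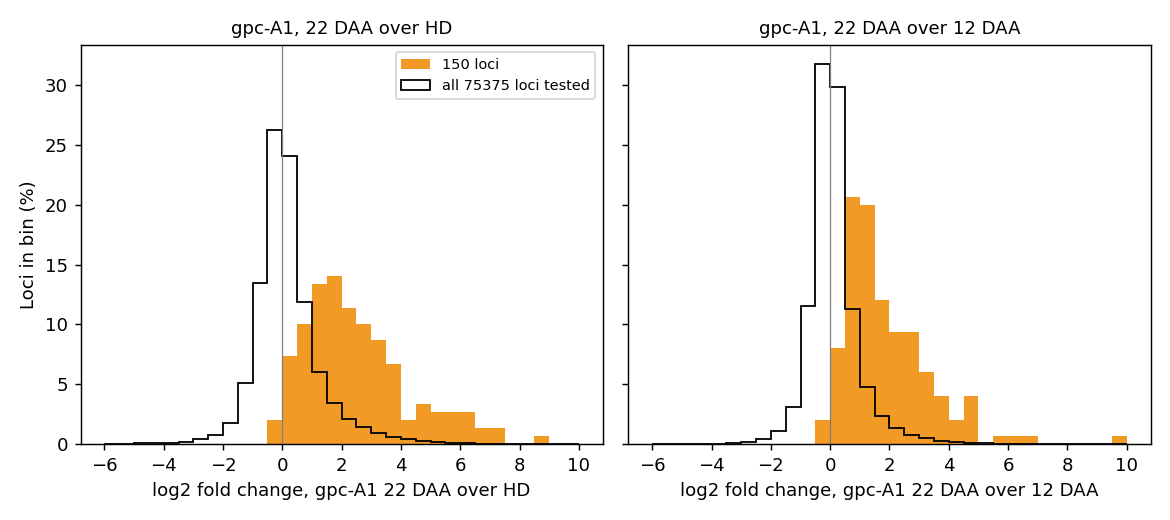
Percentage of loci (vertical) by log2 fold change in gpc-A1 (horizontal; edgeR) at 22 DAA over HD (left) and over 12 DAA (right), as filled bars for the 150 loci and an outline for all 75375 tested loci, with values beyond the ends of the axis put into the end bins. The medians of the 150 are 2.13 and 1.49, against 0.03 and 0.02 for all tested loci.

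From HD to 12 DAA in gpc-A1, 2 of the 150 loci were called higher and 0 lower, against 0.122% and 0.0783% of tested loci, with a median log2 fold change of 0.46 against 0.02. By edgeR alone 4 were higher (0.216%) and 0 lower (0.109%), and by DESeq2 alone 20 were higher (1.25%) and 0 lower (0.816%). At an unadjusted edgeR p under 0.05, 62 were higher (8.53%) and 3 lower (6.43%). The 2 called loci were 5BL_10884282:3666-5581, with a log2 fold change of 1.84 ± 0.23 (edgeR adjusted p = 0.00325), and 3AS_1779497:1-5120, with 2.22 ± 0.31 (edgeR adjusted p = 0.00557). The second, named after its values were seen, held 6.84, 7.20, 4.33 and 7.38 CPM at 12 DAA against 1.53, 1.67, 1.09 and 0.579 CPM at HD. With 1 replicate number left out, only 5BL_10884282:3666-5581 was called without replicate 4 and neither locus otherwise, and leaving out only gpc-A1 HD replicate 1 gave 0.

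In gpc-A1/gpc-B2, 5 of the 150 loci were called higher at 12 DAA than at HD and 0 lower, against 0.516% and 0.505% of tested loci, and the median log2 fold change was 0.66 against 0.04. By edgeR alone 12 were higher (0.905%) and 0 lower (0.677%), and by DESeq2 alone 24 were higher (2.5%) and 1 lower (2.74%). At an unadjusted edgeR p under 0.05, 70 were higher (11.1%) and 4 lower (9.73%). The 5 called loci, named after their values were seen except for 7BS_3038058:1-1149, were 7AS_4068593:464-845 at a log2 fold change of 3.88 ± 0.20, 7BS_3038058:1-1149 at 3.44 ± 0.26, 2BL_8060502:1-2525 at 2.96 ± 0.49, 2BL_7970135:3392-6897 at 2.91 ± 0.21 and 4AL_7079478:189-7648 at 1.32 ± 0.20 (SE, n = 4 per stage). Their edgeR adjusted p values ran from 1.79e-05 to 0.00684. None of the 5 was called in each of the 4 fits that left out 1 replicate number, and 4AL_7079478:189-7648 and 2BL_8060502:1-2525 were called in none.

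Some of these loci were thus already higher by 12 DAA in plants without functional GPC1 and with a mutated GPC2. At 7AS_4068593:464-845, gpc-A1/gpc-B2 leaves held 0.666, 0.724, 0.822 and 0.852 CPM at HD, 15.3, 12.3, 10.8 and 13.8 CPM at 12 DAA, and 28.4, 13.1, 11.4 and 11.3 CPM at 22 DAA. WT leaves held 1.32, 1.20, 0.810 and 6.80 CPM at HD, 20.6, 24.5, 21.2 and 33.5 CPM at 12 DAA, and 44.7, 48.1, 35.1 and 38.1 CPM at 22 DAA. The 3 gpc-A1/gpc-B2 libraries other than replicate 1 were at their 12 DAA level at 22 DAA, while all 4 WT libraries were above theirs. At 4AL_7079478:189-7648 the genotypes were apart by 12 DAA, when gpc-A1/gpc-B2 held 20.3, 16.4, 24.8 and 22.1 CPM and WT 68.3, 79.4, 69.8 and 77.9 CPM. At 22 DAA this locus was above its 12 DAA range in both, at 41.6, 31.9, 28.2 and 30.4 CPM in gpc-A1/gpc-B2 and 93.1, 119, 84.8 and 117 CPM in WT.

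The lowest gpc-A1/gpc-B2 library of 12 DAA was above the highest of HD at 54 loci (13.7% of tested loci), and in gpc-A1 this held for 43 (7.74%). At 22 DAA the gpc-A1/gpc-B2 libraries lay above all of HD at 88 loci (19.3%) but above all of 12 DAA at 19 (1.92%). These last 2 counts use the gpc-A1/gpc-B2 libraries that chose the loci and are given only as a description.

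Comparison of the 2 mutants addressed the effect of adding the GPC-B2 mutation, and no locus of the set was called at the stages before 22 DAA. At HD, gpc-A1/gpc-B2 over gpc-A1 gave 0 called loci of the 150 in either direction, against 0.00133% of tested loci higher and 0% lower. The median log2 fold change was -0.03, with 4 loci higher (3.53% of tested loci) and 9 lower (2.1%) at an unadjusted edgeR p under 0.05. By DESeq2 alone 0 were higher (0.0544%) and 0 lower (0.00531%). At 12 DAA the same comparison gave 0 called loci, against 0.0703% higher and 0.101% lower, with a median of 0.08, and 11 loci higher (5%) and 11 lower (5.4%) at an unadjusted edgeR p under 0.05. By edgeR alone 0 were higher (0.0862%) and 0 lower (0.127%), and by DESeq2 alone 0 were higher (0.223%) and 1 lower (0.269%). The change from HD to 12 DAA itself, compared between gpc-A1/gpc-B2 and gpc-A1 by an edgeR interaction term, differed at 0 of the 150 loci, against 0% of tested loci higher and 0.00133% lower. At an unadjusted p under 0.05 it was larger in gpc-A1/gpc-B2 at 8 loci (1.78%) and smaller at 6 (3.04%), and the lowest edgeR adjusted p was 0.846. On simulated counts this interaction test recovered 2 of 100 loci changed 2-fold and 60 of 100 changed 4-fold, so most 2-fold differences would be missed.

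The locus with the greatest WT excess was 2BL_8092622:3375-4799 on the long arm of chromosome 2B. At 22 DAA, gpc-A1/gpc-B2 leaves held 0.630, 1.02, 0.342 and 0.103 CPM, gpc-A1 leaves 1.66, 50.3, 0.381 and 1.19 CPM, and WT leaves 8.05, 66.2, 1.95 and 3.71 CPM. It was nearly silent before that, with at most 0.344 CPM in any library of HD or 12 DAA. The gpc-A1/gpc-B2 values rested on 15, 24, 7 and 2 counts. Replicate 2 was far above the rest in both gpc-A1 and WT, and the other gpc-A1 libraries overlapped the range of gpc-A1/gpc-B2 or lay just above it. The log2 fold change of gpc-A1 at 22 DAA over HD was 6.22 ± 1.68 (edgeR adjusted p = 0.0352) and missed the threshold, and without replicate 2 the log2 fold change was 2.29.

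High values in single gpc-A1 leaves also marked the next 2 loci of the ranking. At 5AL_2787704:1-285, gpc-A1/gpc-B2 held 2.14, 0.467, 0.391 and 0.103 CPM at 22 DAA, gpc-A1 3.83, 49.0, 1.02 and 17.2 CPM, and WT 28.1, 43.5, 6.45 and 19.3 CPM. This locus was detectable at HD, at 2.51, 0.383, 1.21 and 1.33 CPM in gpc-A1/gpc-B2, and lower at 12 DAA, at 0.182, 0.148, 0 and 0.427 CPM. This difference was a log2 fold change of -2.95 ± 0.67 (edgeR adjusted p = 0.0271) and passed DESeq2 at 0.01 but not all 4 tests. At 2AL_6386163:19254-19542, gpc-A1/gpc-B2 held 3.99, 1.36, 0.586 and 0.465 CPM at 22 DAA, gpc-A1 2.52, 52.8, 0.952 and 3.06 CPM, and WT 16.1, 65.0, 8.07 and 13.1 CPM. Here 3 of the 4 gpc-A1 leaves were within the gpc-A1/gpc-B2 range and the fourth was near the highest WT leaf.

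The fifth locus of the ranking, 5BL_10884282:3666-5581, was the most abundant of the first 10. Its gpc-A1/gpc-B2 values at 22 DAA were 26.9, 31.2, 23.6 and 20.5 CPM, its gpc-A1 values 95.6, 459, 28.4 and 76.8 CPM, and its WT values 120.4, 574, 56.6 and 170.5 CPM. It was higher at each stage than at the one before in all genotypes, with 1.85, 3.45, 1.15 and 1.06 CPM at HD and 4.06, 10.2, 3.93 and 11.1 CPM at 12 DAA in gpc-A1/gpc-B2. In gpc-A1 the log2 fold change of 22 DAA over HD was 6.58 ± 0.93 (edgeR adjusted p = 0.00392). That of 22 DAA over 12 DAA was 4.79 ± 0.83, which passed DESeq2 (adjusted p = 2.52e-08) and not edgeR (adjusted p = 0.108). Without replicate 2 these log2 fold changes were 5.33 and 3.40. Even in gpc-A1/gpc-B2 the values of the 3 stages did not overlap.

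The remaining loci of the first 10 differed in how far gpc-A1 departed from gpc-A1/gpc-B2. At 3B_10564349:6796-10485 the gpc-A1/gpc-B2 leaves held 5.71, 5.09, 6.79 and 3.88 CPM at 22 DAA, the gpc-A1 leaves 18.1, 13.8, 6.03 and 8.68 CPM, and the WT leaves 37.8, 54.4, 46.1 and 52.2 CPM. The WT leaves were above both mutants without overlap there, and already were at 12 DAA, at 15.0, 20.9, 20.99 and 21.9 CPM, where gpc-A1/gpc-B2 held 2.24, 3.98, 5.60 and 2.87 CPM and gpc-A1 1.96, 3.88, 5.52 and 5.05 CPM. At 5AL_164825:1-567 the gpc-A1/gpc-B2 leaves held 2.94, 3.10, 3.18 and 2.17 CPM at 22 DAA, the gpc-A1 leaves 13.7, 56.3, 5.65 and 9.93 CPM, and the WT leaves 17.7, 59.3, 8.56 and 22.4 CPM. In this case every gpc-A1 leaf exceeded every gpc-A1/gpc-B2 leaf and the gpc-A1 range overlapped that of WT. The gpc-A1 change of 22 DAA over HD was 3.11 ± 0.45 on the log2 scale at the 3B locus (edgeR adjusted p = 0.00428) and 6.31 ± 0.92 at the 5AL locus (edgeR adjusted p = 0.00442).

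At 2BL_8039985:10782-13099 the 22 DAA values were 5.46, 3.91, 2.10 and 1.60 CPM in gpc-A1/gpc-B2, 18.9, 38.2, 2.41 and 2.72 CPM in gpc-A1, and 34.3, 78.2, 10.7 and 18.4 CPM in WT. Replicates 3 and 4 of gpc-A1 lay within the gpc-A1/gpc-B2 range there. At 3B_10677326:3349-3874 they were 4.45, 4.20, 3.52 and 3.77 CPM in gpc-A1/gpc-B2, 11.6, 7.46, 1.71 and 6.35 CPM in gpc-A1, and 18.3, 32.9, 24.1 and 28.6 CPM in WT, and the WT leaves stood above both mutants. The 2 loci left of the first 10 were at a low level in gpc-A1/gpc-B2 at 22 DAA, with at most 0.827 CPM at 7AL_4400226:1-4647 and at most 0.635 CPM at 7BL_6751254:2062-6496. Their gpc-A1 values were 1.66, 4.73, 0.888 and 0.794 CPM at the 7AL locus and 0.503, 2.30, 0.508 and 0.908 CPM at the 7BL locus. Their WT values were 7.07, 14.6, 1.25 and 7.04 CPM at the 7AL locus and 4.70, 12.0, 0.650 and 4.25 CPM at the 7BL locus.

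**Figure D4:**
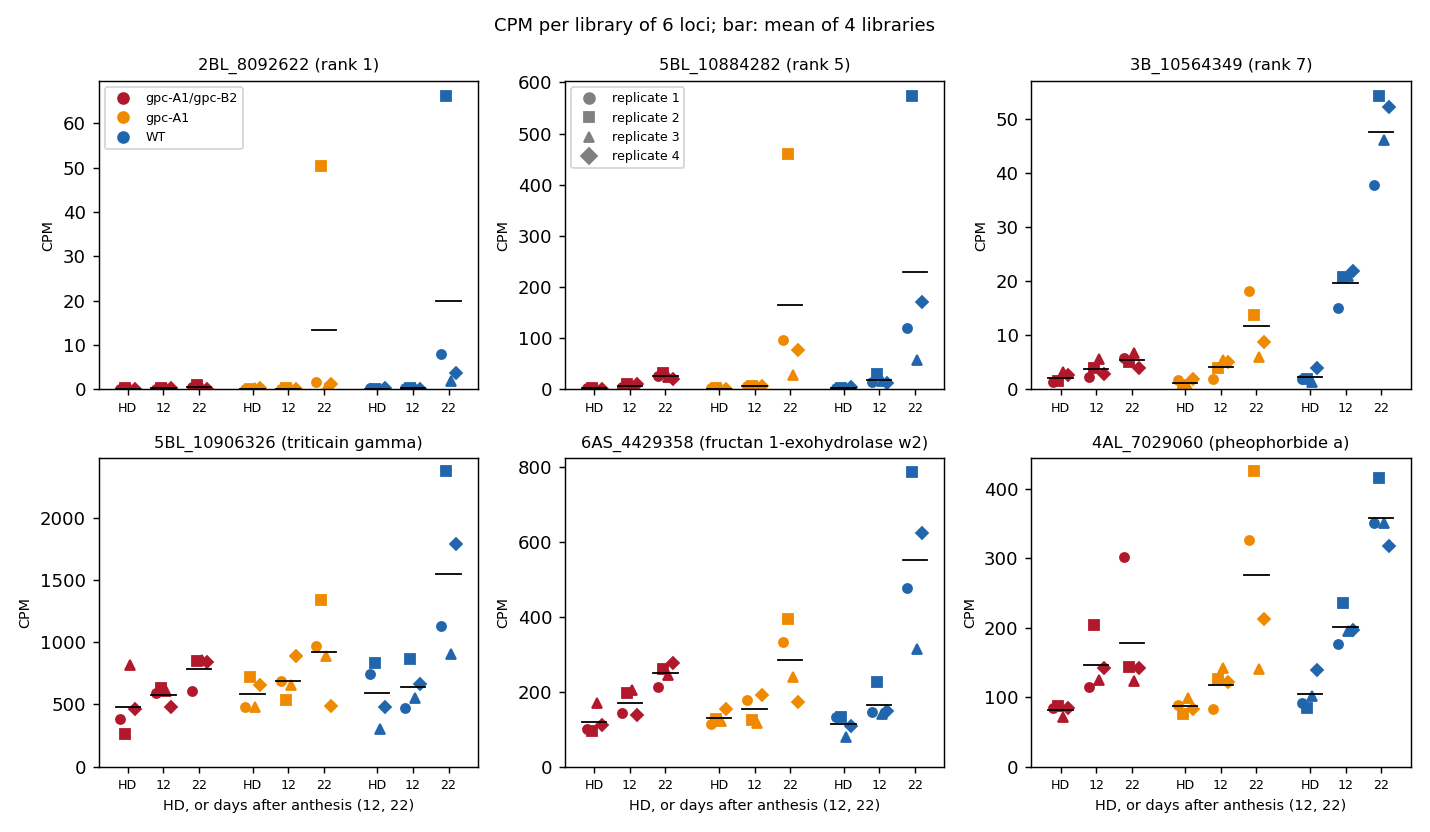
CPM (vertical, from 0) in single libraries of gpc-A1/gpc-B2, gpc-A1 and WT at HD, 12 DAA and 22 DAA for 6 of the named loci, with a bar at the mean of 4 libraries. The burst of gpc-A1 replicate 2 to 50.3 CPM at 2BL_8092622:3375-4799 contrasts with 3B_10564349:6796-10485, where no gpc-A1 library of 22 DAA exceeds 18.1 CPM.

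A description was given for 3 of the 150 loci, and each names an enzyme or a compound of a breakdown process. The first, 5BL_10906326:2977-6405, is described as triticain gamma, a papain-type cysteine protease of wheat, and had the highest WT level of the set. It held 607, 848, 859 and 842 CPM in gpc-A1/gpc-B2 at 22 DAA, 971, 1337, 894 and 489 CPM in gpc-A1, and 1134, 2375, 904 and 1791 CPM in WT. Means were 789 ± 122 CPM in gpc-A1/gpc-B2, 923 ± 348 CPM in gpc-A1 and 1551 ± 666 CPM in WT (SD, n = 4 each). This protease was abundant at all stages, with 380.5, 266, 818 and 466 CPM in gpc-A1/gpc-B2 at HD, and its gpc-A1 change of 22 DAA over HD was 0.48 ± 0.33 on the log2 scale (edgeR adjusted p = 0.347).

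The second, 4AL_7029060:1-3441, carries the description pheophorbide a chloroplastic, which names a chlorophyll breakdown intermediate and no enzyme. An oxygenase opens the ring of that intermediate during senescence. The locus held 301, 144, 123 and 141 CPM in gpc-A1/gpc-B2 at 22 DAA, 326, 426, 140.3 and 212 CPM in gpc-A1, and 351, 415, 350.4 and 317 CPM in WT. Replicate 1 of gpc-A1/gpc-B2 was close to the lowest WT leaf, and the other 3 were far below. At HD the ranges of the 3 genotypes overlapped, with 83.97, 86.6, 71.0 and 84.8 CPM in gpc-A1/gpc-B2, 89.1, 75.6, 98.9 and 83.6 CPM in gpc-A1, and 91.5, 84.7, 101 and 139 CPM in WT. The gpc-A1 change of 22 DAA over HD was 1.51 ± 0.35 (edgeR adjusted p = 0.0208), short of the threshold.

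The third, 6AS_4429358:13735-18681, is described as fructan 1-exohydrolase w2, an enzyme that releases fructose from stored fructans. It held 214, 261, 246 and 276 CPM in gpc-A1/gpc-B2 at 22 DAA, 334, 394, 239 and 174 CPM in gpc-A1, and 477, 789, 315 and 625 CPM in WT. The gpc-A1 libraries lay on both sides of the gpc-A1/gpc-B2 range, and the gpc-A1 change of 22 DAA over HD was 0.98 ± 0.27 on the log2 scale (edgeR adjusted p = 0.0398, DESeq2 adjusted p = 0.00609). These 3 described loci had log2 WT over gpc-A1/gpc-B2 ratios of 0.97, 1.01 and 1.14 in the order given here, all in the lower part of the set, whose median was 1.34.

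Loci of the same pathways and of other leaf functions were also taken from lists by description. The 150 were chosen for a late rise in WT, so their larger median change is no result about these lists. Of 20 protease loci, 1 of them among the 150, 2 were called higher in gpc-A1 at 22 DAA over HD and 0 lower, where 0.366% and 0.699% of tested loci were, and the list median was 1.16 on the log2 scale against 0.03 over all tested loci. The called ones were 5AL_2730909:1-2571 at 1.75 ± 0.29 (edgeR adjusted p = 0.0069) and 3B_10457438:4050-9793 at 1.44 ± 0.22 (edgeR adjusted p = 0.0052). Single protease loci ran from -0.70 at 5AL_2761631:1-13982 to 5.47 at 5BL_10923998:6245-8555. Of 5 chlorophyll breakdown loci, 1 of them among the 150, 0 were called and the median was 1.14. Their values ran from -1.36 at 2BS_5188378:4857-11524 to 1.51 at 4AL_7029060:1-3441. The lists of chloroplast genes had medians below 0, at -1.82 for the 21 light-harvesting loci with 0 called, -1.26 for 24 photosystem loci with 1 called lower, and -1.90 for 10 Rubisco small-subunit loci with 0 called. The median was -0.51 for 9 nitrogen remobilization loci with 1 called lower, and 1.44 for 7 loci of metallothioneins, small metal-binding proteins, with 0 called.

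A triticain gamma locus of chromosome arm 5AL, 5AL_2809791:1-3316, had nearly the same levels as the 5BL locus at 22 DAA without qualifying, at 887 ± 262 CPM in gpc-A1/gpc-B2, 914 ± 447 CPM in gpc-A1 and 1644 ± 892 CPM in WT (SD, n = 4 each). The pheophorbide a locus of arm 4BL, 4BL_6887705:1-1034, held 241 ± 78.0 CPM in gpc-A1/gpc-B2, 336 ± 139 CPM in gpc-A1 and 446 ± 28.2 CPM in WT. Reads from near-identical copies may be split between such loci, or lost where they map to both, since the counts took uniquely mapped reads.

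After the described loci, the highest WT levels of the set were at 7BS_3038058:1-1149 and 7BL_6703745:5588-8220, which carry no description here. The 7BS locus held 286, 122, 83.7 and 106 CPM in gpc-A1/gpc-B2 at 22 DAA, 304, 326, 92.7 and 244 CPM in gpc-A1, and 326, 429, 345 and 309.8 CPM in WT. At 12 DAA it was already at 90.0, 171, 95.7 and 106 CPM in gpc-A1/gpc-B2 and 154, 226, 142 and 205 CPM in WT, compared with 10.3, 9.07, 5.97 and 11.3 CPM in gpc-A1/gpc-B2 at HD. In 3 of its 4 gpc-A1/gpc-B2 libraries the locus therefore did not exceed its 12 DAA range at 22 DAA. The 7BL locus held 125, 73.4, 45.6 and 84.1 CPM in gpc-A1/gpc-B2 at 22 DAA, 139, 209, 64.3 and 109 CPM in gpc-A1, and 247, 365, 150.3 and 266 CPM in WT.

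The gpc-A1 response from 12 to 22 DAA was not uniform across the set. At 4AL_7133541:7818-8465 gpc-A1 leaves held 11.7, 65.8, 3.11 and 3.74 CPM at 22 DAA, above WT at 3.77, 18.7, 1.63 and 1.69 CPM replicate number by replicate number, while gpc-A1/gpc-B2 held 0.504, 1.10, 0.733 and 1.14 CPM. Its change over 12 DAA was 6.37 ± 1.33 on the log2 scale (edgeR adjusted p = 0.116), and 4.02 without replicate 2. At 5BS_2296753:279-1074 all 4 gpc-A1 libraries of 12 DAA had 0 counts, so the 22 DAA level, 3.62, 14.8, 0.381 and 0.397 CPM, was at least 141-fold higher when 3 counts over those 4 libraries are taken as the floor. Without replicate 2 it was at least 28.0-fold higher. At the other end, 6BL_4321069:1-2240, 1AS_51900:289-1201 and 6BS_3037636:583-2256 had log2 fold changes of -0.0022, -0.05 and -0.35 in gpc-A1 at 22 DAA over 12 DAA. The gpc-A1 mean of 6BS_3037636:583-2256 at 22 DAA was 32.2 CPM, near the 28.9 CPM of gpc-A1/gpc-B2 and below the 57.2 CPM of WT.

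The last locus inside the set, 2BS_5193090:2897-4421, and the first outside, 6AS_4427804:923-1977, had the same log2 ratio of 0.96 at this precision. The next inside were 4AL_7034589:13056-15797 and 6BS_3037636:583-2256, both at 0.97, and the next outside 4BL_7031735:4124-5757 and 7AS_4211747:4704-10219, both at 0.96. The set thus has no gap at its border.

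Over all 36 libraries, each locus of the set was compared with the set's mean profile of log2(CPM + 0.5) as a description. The correlations ran from 0.29 to 0.98 with a median of 0.88. The loci outside the set with the most similar profile, among 37513 with a mean of at least 2 CPM in WT at 22 DAA, were 4AS_5952279:5675-11064, 2AL_6379234:1-1586 and 3AS_764817:1-2381, each at 0.97, and 1BL_3790830:2967-7268 and 4AS_6003446:2542-4095, each at 0.96. The first matched TaNRAMP2 and the second TaYSL6, of the families of metal transporters left out of the set. These libraries share stage and genotype.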

How the data were processed

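Total RNA of single flag leaves was sequenced as 50 bp single reads. The authors aligned them with GSNAP to A and B genome contigs of the wheat chromosome-arm assembly and used HTSeq to count reads with a unique position at each locus. After dropping loci with few reads they deposited raw counts for 80168 of 139828 loci. No HTSeq version is given in the sources used here. No normalisation had been applied, and 0 columns went unmatched to a sample.

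The 150 loci and all gene lists were chosen with earlier results of these data known. Loci with more than 3 reads in at least 2 replicates were tested (75375). Each comparison was fitted on its 8 libraries, and the interaction on 16. Tests were edgeR 4.0.16 (quasi-likelihood, TMM), DESeq2 1.42.0 standing in for the authors' older DESeq, a Mann-Whitney-Wilcoxon test and a location test on size-factor-normalised counts, run in R 4.3.3 with Python 3.11.15 and pandas 2.3.3. Adjusted p values are Benjamini-Hochberg values over all tested loci, and the SE of a log2 fold change was taken from the edgeR F statistic. On simulated counts for gpc-A1 at 22 DAA over HD, the 4 tests together recovered 0 of 100 loci changed 2-fold and 38 of 100 changed 4-fold.

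Named loci were the 10 of highest ratio, the 5 of highest WT level at 22 DAA, those with a description, the 3 highest and 3 lowest in gpc-A1 at 22 DAA over 12 DAA, the loci at the border and the 5 most similar profiles. Descriptions came from a supplementary table that covers 782 loci here. Genes of metal transport or metal chelator synthesis that are highest in WT at 22 DAA were matched to loci by their normalised counts, within 1 count. Alternatives were other count minimums, thresholds, tools and sample sets, and each replicate left out. The replicate numbers pair libraries, because the 9 samples of a number were sequenced together. Deviations of same-numbered libraries had mean correlations between -0.134 and 0.018 over the 6 comparisons. At 22 DAA the mean was 0.0069 for WT with gpc-A1 (highest 0.364) and 0.143 for gpc-A1 with gpc-A1/gpc-B2 (highest 0.356).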

Additional observations from a re-analysis of the deposited data

Results flagged for a closer look

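In 12 of 75 groups of 4 libraries examined for the named loci, 1 library lay far from the other 3 by Dixon's criterion. Chance gives this in about 1 of 20 independent groups. These groups share libraries across loci, and WT and gpc-A1/gpc-B2 values of 22 DAA chose the loci. Some loci were also named for their gpc-A1 change, so the count is a description and not a test. Replicate 2 was the library apart in 10 of the 12. In gpc-A1 at 22 DAA it held 50.3 CPM at 2BL_8092622:3375-4799 (others 0.381 to 1.66), 52.8 CPM at 2AL_6386163:19254-19542 (0.952 to 3.06), 459 CPM at 5BL_10884282:3666-5581 (28.4 to 95.6), 56.3 CPM at 5AL_164825:1-567 (5.65 to 13.7), 65.8 CPM at 4AL_7133541:7818-8465 (3.11 to 11.7) and 15.8 CPM at 2BS_5193090:2897-4421 (1.42 to 3.27). In WT at 22 DAA it held 66.2 CPM at 2BL_8092622:3375-4799 (1.95 to 8.05), 65.0 CPM at 2AL_6386163:19254-19542 (8.07 to 16.1), 18.7 CPM at 4AL_7133541:7818-8465 (1.63 to 3.77) and 10.996 CPM at 2BS_5193090:2897-4421 (3.58 to 4.15). In gpc-A1/gpc-B2 at 22 DAA replicate 1 stood apart, low at 607 CPM for the triticain gamma locus 5BL_10906326:2977-6405 (842 to 859) and high at 301 CPM for the pheophorbide a locus 4AL_7029060:1-3441 (123 to 144).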

How the results depend on the processing

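The choice of the 150 loci depended on single replicates. Between 69 and 93 of them were chosen again when 1 replicate number was left out, against 111 with TMM scaling, 142 or 128 with 0.1 or 2 CPM added, 135 or 125 with a minimum of 1 or 5 CPM, and 145 when the metal transport and chelator synthesis genes were kept.

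The 4-test counts were the most sensitive. For gpc-A1 at 12 DAA over HD, 2 calls became 4 by edgeR (0.216% of tested loci higher) and 20 by DESeq2 (1.25%). They became 5 at an adjusted p of 0.05 (0.415%), 1 with all 9 groups in the fit (0.172%), and 0 to 1 with a replicate left out. For gpc-A1 at 22 DAA over HD, 2 became 32 by edgeR (1.58%), 94 by DESeq2 (7.12%) and 0 to 2 with a replicate left out, 1 of these being without gpc-A1 HD replicate 1 (0.0438%). For 22 DAA over 12 DAA, 0 became 39 by DESeq2, and 11 to 71 by DESeq2 with a replicate left out. For gpc-A1/gpc-B2 at 12 DAA over HD, 5 became 12 by edgeR (0.905% higher) and 25 by DESeq2 in both directions (2.5% higher, 2.74% lower). They became 11 in both directions at an adjusted p of 0.05 (1.27% higher, 1.8% lower) and 0 to 3 with a replicate left out. For gpc-A1/gpc-B2 over gpc-A1 at 12 DAA, 0 became 1 by DESeq2, a lower one (0.269% lower). The shares of all tested loci moved too. With a replicate left out, the 4 tests called 0.004% to 0.0478% of them higher for gpc-A1 at 12 DAA over HD. The range was 0% to 0.24% for gpc-A1 at 22 DAA over HD. For gpc-A1/gpc-B2 at 12 DAA over HD it was 0.0332% to 0.172%. The causes were not tested.

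When the replicate number, which pairs libraries sequenced together, entered the fit as a block, the 4-test counts were 2, 2 and 0 for gpc-A1 and 4 against 5 for gpc-A1/gpc-B2 at 12 DAA over HD, and the block gave 0 for both comparisons between mutants and for the interaction. In the same order, 0.119%, 0.115% and 0% of tested loci were called higher with the block in gpc-A1, and 0.211% in gpc-A1/gpc-B2. By edgeR alone, loci higher at 12 DAA than at HD numbered 7 with the block against 4 in gpc-A1 (0.342% against 0.216% of tested loci). In gpc-A1/gpc-B2 they numbered 6 against 12 (0.337% against 0.905%). For gpc-A1 at 22 DAA over 12 DAA, DESeq2 gave 21 with the block against 39 (0.759% against 1.55%).

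Leaving out a replicate was an alternative chosen after seeing the data for these values. It gave median log2 fold changes of 1.37 to 2.34 for gpc-A1 at 22 DAA over HD and 0.87 to 1.85 over 12 DAA. Both low medians are those without replicate 2. Loci without overlap above HD ran from 107 without replicate 2 (21% of tested loci) to 131 without replicate 3 (21.8%). Those above 12 DAA ran from 61 without replicate 2 (8.83%) to 94 without replicate 3 (11.6%). Whichever replicate was left out, the shares of tested loci lay between 19.2% and 27.3% above HD and between 7.62% and 16.1% above 12 DAA.

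Among named loci the sign reversed 8 times. With 1 replicate left out, the log2 fold change of 22 DAA over HD ranged from -0.059 (without replicate 2) to 0.8913 at 7BL_6751254:2062-6496 and from -0.2507 to 0.074 (without replicate 3) at 6BL_4321069:1-2240. At 22 DAA over 12 DAA it ranged from -0.1602 to 0.0909 at 6BL_4321069:1-2240, which also gave 0.0016 with a filter of 10 reads, from -0.3033 to 0.0664 at 1AS_51900:289-1201, and from -0.0059 (without replicate 2) to 2.285 at 2BS_5193090:2897-4421. In these 2 comparisons, in which no named locus was called by the 4 tests, the sign and the absence of a call held in 512 other cases, and in 26 a call was gained.

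With 13.8 to 49.0 counts per CPM, loci near 0.1 CPM rest on a few counts, where counting error is large.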
